A study of Mus musculus with 6 samples.

Results

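The data described here concern 10 genes that encode proteins binding messenger RNA: Pabpc1, Pabpc4, Igf2bp1, Igf2bp3, Ncl, Syncrip, Elavl1, Tia1, Tial1 and Nufip2. They were taken by symbol from a table of 6532 genes, and all 10 were present. Several members were selected on their PKM2 crosslink stops or on a difference of RNA reads in the 3' UTR between conditions, so those values are given as a description only. All libraries came from E14, an established mouse embryonic stem cell line. Wild-type E14 cells had been transfected for 36 h with 20 nM of an siRNA pool against PKM (siPKM) or of a non-targeting pool (siCtrl). Both cultures were passaged 16 h before harvest and received cycloheximide at 100 µg per ml for 2 min. From each condition came 1 RNA library, depleted of rRNA, and 1 footprint library (RPF), made from the stretches of message that ribosomes protect. The remaining 2 libraries were FAST-iCLIP replicates from E14 cells expressing PKM2 with a FLAG-HA tag, irradiated with 0.35 J per cm2 of UV. Footprints had been cut with RNase A and RNase T1, so their ends depend on the bases of the message.

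Proteins that bind messages decide how long an mRNA lasts, where it goes and how often it is translated. Poly(A)-binding proteins coat the tail and contact the initiation machinery at the cap, IGF2BP proteins hold and protect selected messages in early development, ELAV proteins bind AU-rich and U-rich 3' UTR sites, and TIA proteins gather stalled messages in stress granules. Many of these proteins also regulate their own messages or those of their relatives. Pyruvate kinase M2 (PKM2) is a glycolytic enzyme, and the study asked which RNAs it contacts and how its loss alters messages and their ribosomes.

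Over the 6532 genes the RNA and RPF libraries held between 10349212 and 15175242 reads in the coding sequence (CDS) without its first 15 and last 5 codons, and the CLIP libraries held 677534 and 670508 reverse transcription stops. The targeted gene (Pkm2 in the table) had 1582 CPM (CDS counts scaled to a common library total) in siPKM RNA and 5024 in siCtrl RNA. Of the 6 pluripotency markers listed, 5 were in the table, and their summed level was 2875 CPM in siPKM RNA and 2931 in siCtrl RNA. Few markers of other cell types were among the table's genes. The 3 neural markers measured, of 4 listed, summed to 125 CPM in siPKM RNA and 177 in siCtrl RNA. Vim, 1 of 4 fibroblast markers, stood at 304 and 229 CPM, the 3 trophoblast markers of 6 symbols at 83.6 and 77.5 CPM, and Cubn, 1 of 4 primitive endoderm markers, at 16.4 and 15.1 CPM, in siPKM and siCtrl RNA. Single markers within a list differed in opposite directions, Krt8 at 0.59 and Tcfap2c at -0.60 among the trophoblast markers, and Esrrb at 0.55 and Zfp42 at -0.29 among the pluripotency markers (log2 of siPKM over siCtrl in RNA). Their part in the differences below was not tested.

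The comparison of siPKM with siCtrl asked how the messages and their ribosomes differed after knockdown. Igf2bp3 was the member with the largest difference, higher in siPKM in both RNA and footprints, while its relative Igf2bp1 was lower in both. Pabpc1 was higher in RNA and less so in footprints, Syncrip was lower in both, and the other 6 lay between -0.33 and 0.06 on the log2 scale in both assays. Ratios are log2 values of siPKM over siCtrl with the median gene of the table set to 0, so a shift common to all genes is not seen. Each siRNA condition had 1 library of each kind, so no difference has a replicate check, no p-value is given, and the 95% intervals cover counting error only. At least 1.5-fold higher in siPKM RNA was 1 of the 10 members (2.88% of all genes), and 0 were at least 1.5-fold lower (1.24%). In footprints the same counts were 1 (2.66%) and 0 (1.53%). The member median was -0.09 in RNA and -0.13 in RPF.

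**Figure D1:**
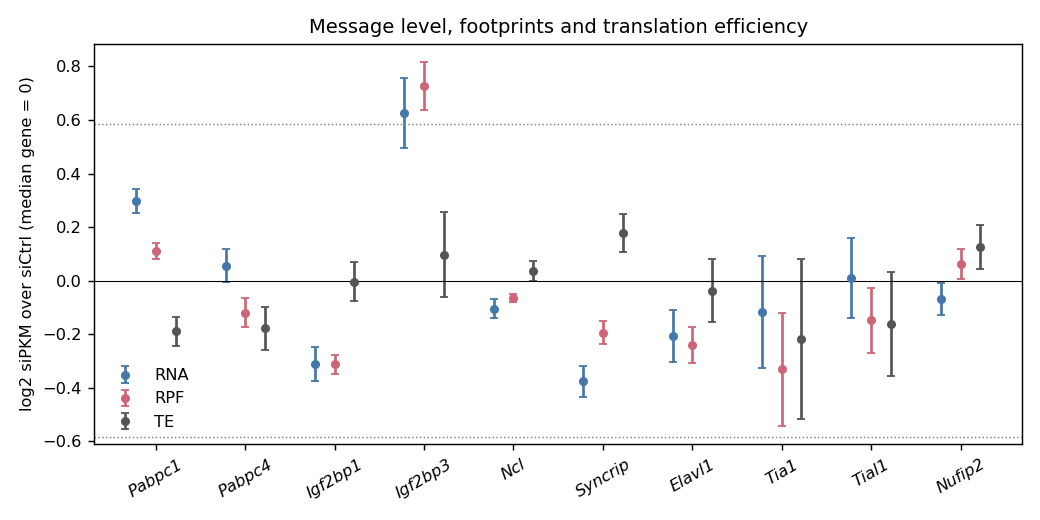
Log2 ratios of siPKM over siCtrl (vertical axis, median gene at 0) for each of the 10 genes in RNA, footprints (RPF) and translation efficiency (TE), with 95% counting intervals as bars and dotted lines at 1.5-fold. Igf2bp3 is the gene above the upper line, at 0.63 in RNA and 0.73 in RPF, and the lowest RNA ratio is that of Syncrip at -0.38.

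Of the poly(A)-binding proteins, Pabpc1 (NM_008774), the main cytoplasmic form, had 825 CPM in siPKM RNA and 650 in siCtrl RNA, and 1316 CPM in siPKM footprints and 1200 in siCtrl footprints. It was thus higher in both siPKM libraries, at 0.30 (0.25 to 0.34) in RNA and 0.11 (0.08 to 0.14) in RPF. Pabpc4 (NM_130881), an inducible cytoplasmic relative, had 403 CPM in siPKM RNA and 375 in siCtrl RNA, and 410 CPM in siPKM footprints and 439 in siCtrl footprints. Its ratios were 0.06 (-0.00 to 0.12) in RNA and -0.12 (-0.17 to -0.07) in RPF, not distinct from the median gene in RNA and below it in RPF. The ratio of Pabpc4 to Pabpc1 reads, which needs no scaling of libraries, was 0.488 in siPKM RNA and 0.577 in siCtrl RNA. In footprints it was 0.312 in siPKM and 0.366 in siCtrl. The log2 difference of that ratio was -0.24 (-0.32 to -0.17) in RNA and -0.23 (-0.29 to -0.17) in RPF, so the balance between the pair differed alike in both assays. How reads with several matches were counted is not known here, and poly(A)-binding proteins have related copies, so their single values are uncertain.

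The IGF2BP proteins, oncofetal KH domain proteins that bind and stabilise selected messages, differed in opposite directions. Igf2bp1 (NM_009951) had 324 CPM in siPKM RNA and 389 in siCtrl RNA, and 823 CPM in siPKM footprints and 1007 in siCtrl footprints. Its ratios were -0.31 (-0.38 to -0.25) in RNA and -0.31 (-0.35 to -0.28) in RPF. Igf2bp3 (NM_023670) had 106 CPM in siPKM RNA and 66.3 in siCtrl RNA, and 192 CPM in siPKM footprints and 114 in siCtrl footprints. The ratios of 0.63 (0.50 to 0.76) in RNA and 0.73 (0.64 to 0.82) in RPF placed Igf2bp3 at rank 140 and rank 96 from the highest of 6532 genes. Igf2bp3 made up 24.6% of the reads of the pair in siPKM RNA and 14.6% in siCtrl RNA. Among footprints its share was 19.0% in siPKM and 10.2% in siCtrl. The log2 difference of the Igf2bp3 to Igf2bp1 ratio was 0.94 (0.79 to 1.09) in RNA and 1.04 (0.94 to 1.14) in RPF. The remaining relative, Igf2bp2, stood at 0.07 in RNA and -0.10 in RPF.

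Ncl (NM_010880), nucleolin, an abundant nucleolar protein that also binds messages in the cytoplasm, had 1171 CPM in siPKM RNA and 1219 in siCtrl RNA, and 5082 CPM in siPKM footprints and 5242 in siCtrl footprints. The ratios of -0.10 (-0.14 to -0.07) and -0.07 (-0.08 to -0.05) were small beside the fold threshold, with narrow intervals because of the read number. Syncrip (hnRNP Q, NM_019666), which binds A-rich message stretches and takes part in RNA transport and translation, had 394 CPM in siPKM RNA and 494 in siCtrl RNA, and 600 CPM in siPKM footprints and 677 in siCtrl footprints. Its RNA ratio of -0.38 (-0.43 to -0.32) was the lowest of the members, at rank 357 from the lowest of all genes, and its RPF ratio was -0.19 (-0.24 to -0.15).

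Elavl1 (HuR, NM_010485), which protects messages with AU-rich 3' UTRs, had 146 CPM in siPKM RNA and 163 in siCtrl RNA, and 250 CPM in siPKM footprints and 290 in siCtrl footprints, with ratios of -0.21 (-0.30 to -0.11) and -0.24 (-0.31 to -0.17). Tia1 (NM_011585), a stress granule protein that holds back translation, had 31.6 CPM in siPKM RNA and 33.2 in siCtrl RNA, and 23.8 CPM in siPKM footprints and 29.5 in siCtrl footprints. Tial1 (TIAR, NM_009383), its close relative, had 64.5 CPM in siPKM RNA and 62.1 in siCtrl RNA, and 74.0 CPM in siPKM footprints and 80.8 in siCtrl footprints. Neither RNA ratio differed from the median gene beyond counting error, at -0.12 (-0.33 to 0.09) for Tia1 and 0.01 (-0.14 to 0.16) for Tial1, and the sign of the Tial1 ratio turned, to -0.01, when the first 15 and last 5 codons were counted. These ratios cover CDS reads alone. On the whole transcript Tial1 had 1798 RNA reads in siPKM and 1582 in siCtrl. Those libraries held 16417282 and 19164950 such reads over all genes. The RPF ratios were -0.33 (-0.54 to -0.12) for Tia1, the lowest of the members, and -0.15 (-0.27 to -0.03) for Tial1. The wide interval of Tia1 held that of Igf2bp1. With the first 15 and last 5 codons counted, Tia1 stood at -0.296 in RPF, above Igf2bp1 at -0.310. Unlike in the IGF2BP pair, the Tial1 to Tia1 ratio showed no difference between conditions beyond counting error, at 0.13 (-0.13 to 0.39) in RNA and 0.18 (-0.06 to 0.43) in RPF. Nufip2 (NM_001024205), a binding partner of the fragile X protein that is found in stress granules, had 406 CPM in siPKM RNA and 412 in siCtrl RNA, and 381 CPM in siPKM footprints and 360 in siCtrl footprints, at -0.07 (-0.13 to -0.01) and 0.06 (0.01 to 0.12).

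Counting error alone covered few of these ratios, because the members had many reads. The interval lay below 0 for 5 members in RNA (28.7% of all genes) and for 7 in RPF (28.7%), and above 0 for 2 in RNA (27.7%) and for 3 in RPF (26.6%). Variation between cultures is not included in such an interval.

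Translation efficiency (TE), the footprint share of a CDS over its RNA share, was next compared between genes in control cells. Most of the members' messages were more densely covered by ribosomes per RNA read than the median gene, which was set to 0. In siCtrl 9 of the 10 were above it (50.0% of all genes by construction), with a member median of 0.80. Ncl led at 2.28 (2.26 to 2.31) in siCtrl, 4.86 times the median gene and rank 74 of 6532, and stood at 2.29 in siPKM. Igf2bp1 followed at 1.52 in siPKM and 1.55 in siCtrl, apart from Ncl and from the next gene beyond counting error. Then came Pabpc1 at 0.85 in siPKM and 1.06 (1.02 to 1.10) in siCtrl, Elavl1 at 0.95 and 1.01 (0.93 to 1.09) and Igf2bp3 at 1.04 and 0.96 (0.84 to 1.08), and the siCtrl intervals of these 3 neighbours overlapped. Syncrip stood at 0.78 in siPKM and 0.63 (0.58 to 0.68) in siCtrl, Tial1 at 0.37 and 0.56 (0.42 to 0.69) and Pabpc4 at 0.20 and 0.40 (0.35 to 0.46), and the interval of Tial1 overlapped those of both neighbours. Lowest were Tia1 at -0.24 in siPKM and 0.00 (-0.19 to 0.20) in siCtrl and Nufip2 at 0.09 and -0.02 (-0.07 to 0.04), which did not differ from each other or from the median gene in siCtrl beyond counting error. Ncl and Igf2bp1 led in both conditions, whereas Pabpc1 stood ahead of Elavl1 and Igf2bp3 in siCtrl and behind them in siPKM.

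The difference of TE between conditions was small for every member. At least 1.5-fold higher in siPKM were 0 members (0.184% of all genes) and 0 were at least 1.5-fold lower (0.827%). The poly(A)-binding proteins were lower by similar amounts, Pabpc1 at -0.19 (-0.24 to -0.14) and Pabpc4 at -0.18 (-0.26 to -0.10), and these were the 2 members whose interval lay below 0 (14.7% of all genes). Syncrip at 0.18 (0.11 to 0.25) and Nufip2 at 0.13 (0.05 to 0.21) were the 2 whose interval lay above 0 (14.1%). Igf2bp1 at -0.00 (-0.08 to 0.07) and Igf2bp3 at 0.10 (-0.06 to 0.26) had no TE difference beyond counting error, and neither had Ncl at 0.04, Elavl1 at -0.04, Tial1 at -0.16 (-0.35 to 0.03) or Tia1 at -0.22 (-0.51 to 0.08). The log2 TE of siPKM minus that of siCtrl in the authors' deposited table, not centred, was -0.21 for Pabpc1, -0.20 for Pabpc4, 0.16 for Syncrip and 0.11 for Nufip2.

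Where the reads lay along each transcript was compared next, first in the 3' UTR, where many message-binding proteins attach. Tial1 and Syncrip had more 3' UTR reads per CDS read in siPKM RNA, and Ncl had a smaller difference in the same direction. Tial1 had 1051 RNA reads in the 3' UTR and 668 in the CDS in siPKM, and 710 and 752 in siCtrl, so its 3' UTR reads were more numerous in the smaller library while its CDS reads were fewer. The 3' UTR held 58.5% (95% Clopper-Pearson interval 56.1 to 60.7) of Tial1 RNA reads in siPKM and 44.9% (42.4 to 47.4) in siCtrl. Syncrip had 294 reads in the 3' UTR and 4073 in the CDS in siPKM, and 246 and 5985 in siCtrl. Its 3' UTR share was 6.05% (5.40 to 6.76) in siPKM and 3.61% (3.18 to 4.08) in siCtrl, the smallest of the 10 in both. Ncl had 5120 and 12124 reads in siPKM, and 4613 and 14763 in siCtrl, which gave 27.3% (26.6 to 27.9) in siPKM and 21.5% (21.0 to 22.1) in siCtrl.

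As a log2 ratio of 3' UTR to CDS reads, centred on the 5807 genes with a mean of at least 50 reads in the 3' UTR, siPKM exceeded siCtrl by 0.81 (0.56 to 1.06) for Syncrip, by 0.73 (0.53 to 0.94) for Tial1 and by 0.43 (0.36 to 0.50) for Ncl. They ranked 18, 33 and 211 from the highest. At least 1.5-fold higher were 2 members (1.52% of genes measured), and 0 were at least 1.5-fold lower (1.43%); since this difference served to choose members, nothing is read from the count. The other 7 lay between -0.15 (Tia1) and 0.11 (Igf2bp1); the interval of Tia1 was -0.41 to 0.11. The footprint share in the 3' UTR stayed small throughout, at 7 reads of Tial1 in each condition, 0 of Syncrip in siPKM and 4 in siCtrl, and 41 of Ncl in siPKM and 53 in siCtrl. The 0 of Syncrip allows a share of up to 0.0348%.

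Igf2bp1 had the largest 3' UTR share of the members, 76.2% of RNA reads in siPKM and 74.9% in siCtrl, rank 111 of 6532 genes in both, against 29.2% and 28.7% over all genes. Tia1 (64.0% in siPKM and 65.9% in siCtrl), Nufip2 (57.7% and 56.1%), Elavl1 (55.0% and 54.6%) and Igf2bp3 (53.7% and 55.9%) also had more than the share over all genes, whereas Pabpc4 had 12.3% in siPKM and 12.5% in siCtrl. Such shares depend on the length of the 3' UTR, which was not given in the table.

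**Figure D2:**
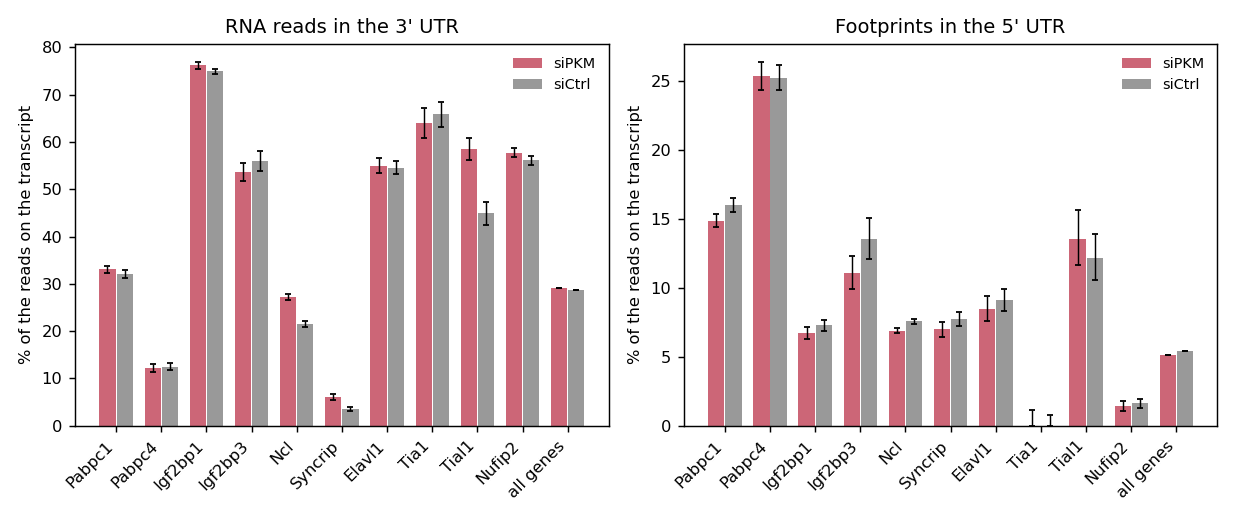
Percent of the reads on each transcript that lay in the 3' UTR in RNA (left) and in the 5' UTR among footprints (right), in siPKM and siCtrl, with 95% Clopper-Pearson intervals as bars and the sum over all genes at the right end. In RNA the siPKM bars of Tial1 (58.5%) and Ncl (27.3%) exceed those of siCtrl (44.9% and 21.5%), and among footprints Pabpc4 (25.3% and 25.2%) and Pabpc1 (14.9% and 16.0%) are highest.

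At the other end of the transcript, both poly(A)-binding proteins carried a large share of their footprints in the 5' UTR. For Pabpc4 it was 25.3% (24.3 to 26.3) in siPKM and 25.2% (24.3 to 26.1) in siCtrl, and for Pabpc1 14.9% (14.4 to 15.4) and 16.0% (15.5 to 16.5), against 5.15% and 5.41% over all genes. Pabpc1 ranked 899 and 851 of 6532 genes. A raised share was not particular to this pair. Tial1 had 13.5% (11.7 to 15.6) in siPKM and 12.2% (10.6 to 13.9) in siCtrl. Igf2bp3 had 11.1% (9.93 to 12.3) in siPKM and 13.5% (12.1 to 15.1) in siCtrl. Of all members, Nufip2 and Tia1 alone lay below the 5' UTR share over all genes. Pabpc4 also had many RNA reads there, 16.8% in siPKM and 17.8% in siCtrl, ranks 143 and 137 of all genes, whereas Pabpc1 had 409 RNA reads there in siPKM and 474, or 3.78%, in siCtrl. Footprints per RNA read in the 5' UTR relative to the same in the CDS, computed after these values were seen, were 3.77 (3.39 to 4.20) for Pabpc1 in siPKM and 3.26 (2.95 to 3.60) in siCtrl. For Pabpc4 they were 1.42 (1.30 to 1.55) in siPKM and 1.30 (1.20 to 1.41) in siCtrl. Both intervals lay above the median gene's 1.15, though closer to it than those of Pabpc1. Tial1 stood at 2.38 (1.70 to 3.32) in siPKM and 1.49 (1.13 to 1.97) in siCtrl, with overlapping intervals. These values rest on 163 and 188 footprints and on 49 and 77 RNA reads. The intervals of Syncrip did not overlap, at 0.92 (0.80 to 1.06) in siPKM and 1.27 (1.13 to 1.43) in siCtrl. They rest on 601 and 916 footprints and on 352 and 420 RNA reads. How many of all genes have such separate intervals was not counted, so nothing is read from this difference. Nufip2 was the lowest, at 0.63 (0.47 to 0.86) in siPKM and 0.70 (0.53 to 0.92) in siCtrl. Its intervals overlapped those of Elavl1, at 0.77 (0.63 to 0.93) in siPKM and 0.74 (0.63 to 0.86) in siCtrl. Ncl was also below the median gene, at 0.85 (0.79 to 0.91) in siPKM and 0.88 (0.82 to 0.93) in siCtrl. For Tia1, 0 reads were counted in the 5' UTR and 0 in the first 15 codons in all 4 libraries. By depth alone this allows up to 0.962% of footprints in siPKM and 0.656% in siCtrl. Since RNA also had 0 reads there, of 920 in siPKM and 1216 in siCtrl, no footprint level is given for these regions of Tia1.

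With the CLIP libraries, the study asked which RNAs PKM2 touches. Reverse transcription tends to stop beside a crosslinked base, and stops were counted per mature transcript with background included, since no untagged control was analysed here. Nufip2, Igf2bp1, Pabpc1 and Ncl carried far more stops than the other members. Nufip2 had 2976 CPM in replicate 1 and 3060 in replicate 2 (3018 ± 60.0, SD, n = 2) and ranked 5 of 6532 genes. Igf2bp1 had 2220 and 2255 CPM (2237 ± 24.9), Pabpc1 2301 and 2161 CPM (2231 ± 99.0) and Ncl 1957 and 1955 CPM (1956 ± 1.32), at ranks 13, 14 and 19. These 4 were among the 100 highest (1.53% of all genes), which is what they were chosen for. Elavl1 had 322 and 298 CPM (310 ± 16.6), Syncrip 165 and 222 (194 ± 40.2), Tial1 207 and 172 (189 ± 24.8), Igf2bp3 159 and 188 (174 ± 20.2) and Tia1 153 and 172 (163 ± 12.7). Pabpc4 had 82.7 and 70.1 CPM (76.4 ± 8.88), close to the median of all genes at 80.8 CPM. In number of stops, members of a pair thus stood far apart, Pabpc1 at 2231 CPM and Pabpc4 at 76.4 CPM, and Igf2bp1 at 2237 CPM and Igf2bp3 at 174 CPM.

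Stops follow the amount and the length of a message, so they were set against control RNA reads on the whole transcript, as log2 of the CPM ratio. Nufip2 was highest at 2.28 ± 0.03 (SD, n = 2), 4.86-fold and rank 404 of all genes, followed by Pabpc1 at 1.77 ± 0.06, Tia1 at 1.36 ± 0.11, Tial1 at 1.19 ± 0.19 and Igf2bp1 at 1.07 ± 0.02. These 5 were at least 2-fold in both replicates, as were 24.0% of all genes. Ncl at 0.81 ± 0.00, Igf2bp3 at 0.64 ± 0.17 and Elavl1 at 0.21 ± 0.08 lay between, and Syncrip stood at -0.89 ± 0.30. Pabpc4 was at -2.19 ± 0.17, rank 347 from the lowest, and was the 1 member at 0.5-fold or less in both replicates (16.0%). On this scale Pabpc1 minus Pabpc4 was 3.96 and Igf2bp1 minus Igf2bp3 was 0.43, which is a description, since stops served to choose members. The order depends on what stands in the denominator. Against CDS reads of control RNA, Igf2bp1 stood at 2.52 and Igf2bp3 at 1.39. Set against control footprints, Ncl was on the other side of 0, at -1.42, Pabpc1 stood at 0.89, and Nufip2 at 3.07 and Tia1 at 2.47 were highest. The RNA of the denominator came from siCtrl cells and not from the tagged cells.

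**Figure D3:**
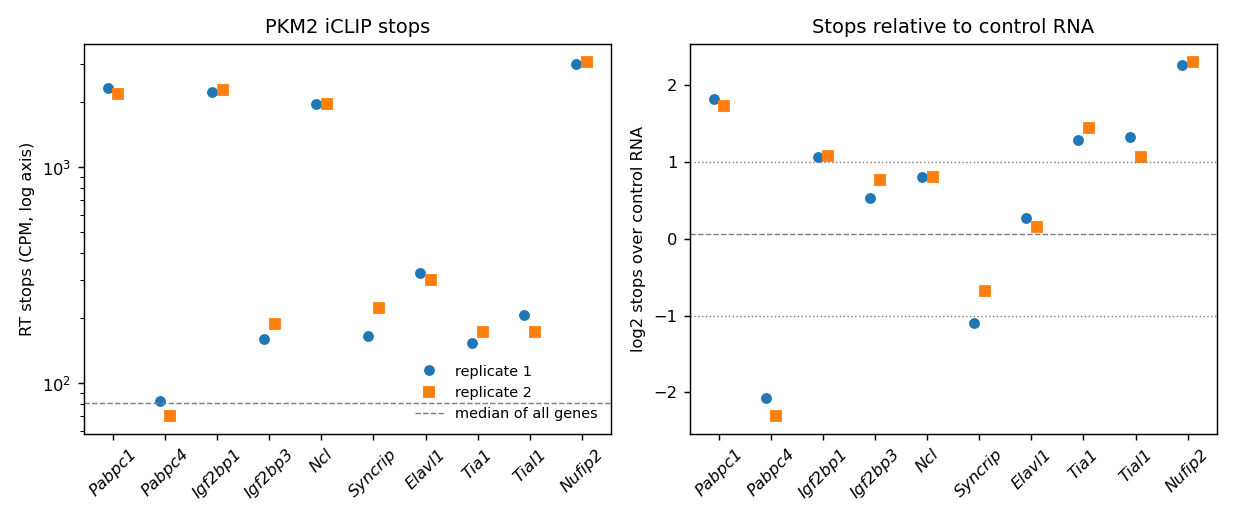
Reverse transcription stops of the 10 genes in both PKM2 CLIP replicates, as CPM on a log axis (left) and as log2 over control RNA (right), with the median of all genes dashed and 2-fold dotted. Nufip2, Igf2bp1, Pabpc1 and Ncl lie between 1955 and 3060 CPM, and Pabpc4 is lowest in both panels.

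The CLIP replicates differed by more than sampling noise over all genes, with a chi-square of 1.95 per degree of freedom, so they were treated as separate samples. Among the members, the interval of Syncrip left out the library share, with 42.9% (36.8 to 49.2) of its stops in replicate 1, against 50.3% of all stops. How many of all genes depart in this way was not counted, so it is not read as particular to Syncrip. The labels do not tell whether separate cultures were used, and the SD between them may thus be technical.

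For 56 further message-binding proteins measured, in 8 lists, 0 were at least 1.5-fold apart in RNA or in footprints. Likewise 0 of the 55 with enough 3' UTR reads were so in the 3' UTR ratio. Over all genes 2.88% were higher and 1.24% lower in RNA, 2.66% and 1.53% in footprints, and 1.52% and 1.43% in the 3' UTR ratio. In TE 0 were higher (0.184% of all genes) and 1 was lower (0.827%). That 1 was Atxn2l, a stress granule protein related to ataxin-2, with RNA at 0.40, RPF at -0.24 and TE at -0.64 (-0.80 to -0.49). Their medians were -0.02 in RNA, -0.08 in RPF and -0.07 in TE. Control TE was above the median gene for 41 of the 56, with a median of 0.56, so high control TE was not restricted to the 10 members. In CLIP over RNA 22 of the 56 were at least 2-fold in both replicates (24.0% of all genes) and 4 at 0.5-fold or less (16.0%). Their median was 0.85, beside 0.94 for the members and 0.07 over all genes.

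Within the lists, CLIP over RNA also varied. Of the poly(A)-binding and LARP partners, the nuclear poly(A)-binding protein Pabpn1 was highest at 2.34 ± 0.06 and Paip2, an inhibitor of poly(A)-binding protein, lowest at -0.63 ± 0.00. Among KH domain proteins, the decay factor Khsrp stood at 2.38 ± 0.05 and the fragile X relative Fxr1 at -1.42 ± 0.13. In the stress granule list Atxn2l stood at 3.44 ± 0.11 and G3bp1, a core protein of the granule, at -2.04 ± 0.16. AU-rich element binders ran between 2.35 ± 0.10 for Hnrnpd and -0.30 ± 0.08 for Hnrnpab. The cold shock domain proteins were all below 0, with Lin28a, which blocks let-7 maturation, at -0.27 ± 0.08 and Ybx1, a general packaging protein of messages, at -2.35 ± 0.06. YTH readers of N6-methyladenosine ran between 1.35 ± 0.05 for Ythdf3 and -0.47 ± 0.22 for Ythdf2. The Pumilio, Musashi, Staufen, CELF and CPEB list ran between 3.56 ± 0.06 for Samd4b and 0.49 ± 0.05 for Pum2, a Pumilio repressor. Of the remaining message-bound proteins, Unk was highest at 2.43 ± 0.39 and Hnrnpr, a close relative of Syncrip, lowest at -1.92 ± 0.55.

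**Figure D4:**
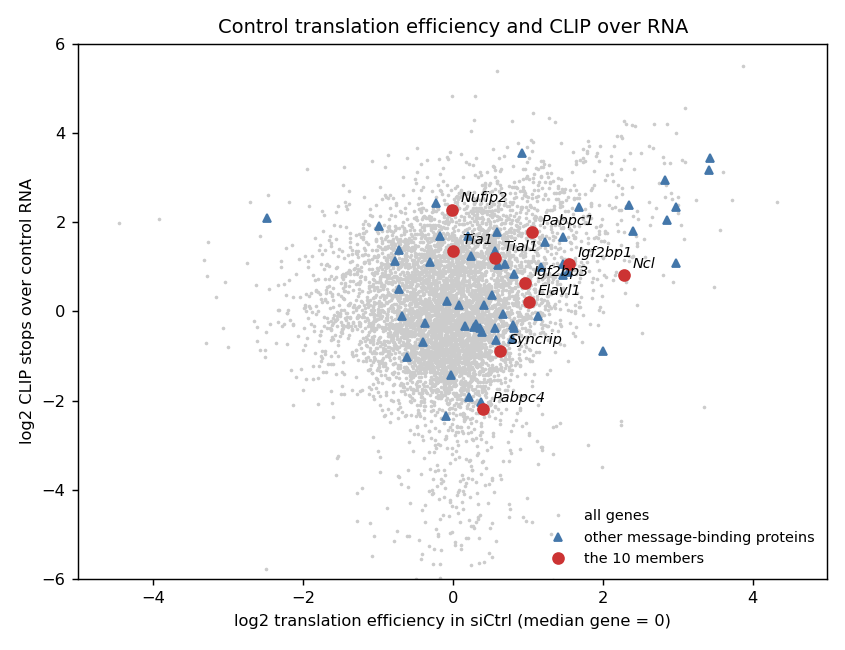
Log2 CLIP stops over control RNA (vertical) against log2 translation efficiency in siCtrl (horizontal, median gene at 0) for all genes in grey, 56 other message-binding proteins as triangles and the 10 genes as labelled circles; 44 genes lie outside the range drawn. Ncl is farthest to the right at 2.28 and Pabpc4 lowest at -2.19 among the 10.

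Over 4 measures (the RNA and TE ratios, control TE and CLIP over RNA, each divided by its median absolute deviation over all genes), the 3 genes nearest to Nufip2 were H13, the minor histocompatibility antigen, at a distance of 0.38, the RNA phosphatase Dusp11 at 0.49 and the zinc finger gene Znf512b at 0.60. The median distance over all genes was 3.85, and the nearest genes lie below it by construction. H13 had -0.06 in RNA, 0.15 in TE, -0.09 in control TE and 2.02 in CLIP over RNA, and Nufip2 -0.07, 0.13, -0.02 and 2.28.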

How the data were processed

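Messenger RNA, footprints and PKM2 iCLIP stops were read from a single table of the series. The counts, deposited by the authors, are raw reads per transcript region and raw reverse transcription stops per mature transcript, per the file headers. The log2 values (RPM, TE, CLIP enrichment) were also deposited by the authors, and only their TE was quoted. Reads were handled with cutadapt and Bowtie2 on mm9, per the submitters' processing notes; versions, the counting tool, strand and multiple matches are not given in the sources used here, so overlapping antisense genes cannot be told apart. No coordinates of the table's transcripts are given. Of 6535 rows, 3 repeated a symbol and the row with more RNA reads was kept; the lowest CDS count in any library was 151, so weaker genes are not analysed here. One sequence comparison of start regions is not reported here.

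With Python 3.11.15, pandas 2.3.3 and scipy 1.17.1, 0.5 was added to counts, which were scaled by library sums and centred on the median gene. TE ratios were RPF minus RNA log2 ratios, centred again. Intervals are 95% and cover counting error only (PCR reads carry no molecular identifiers): log-scale Poisson for ratios, exact Clopper-Pearson for shares. A count of 0 allows 3 counts. The functions were tested on simulated data. Groups came from sample titles; with 1 library per siRNA group and assay no test was run. Alternatives used edgeR 4.0.16 TMM factors, other added counts, regions, filters and denominators. The members and lists were chosen with earlier results of these data known. Named were all members, list genes at least 1.5-fold apart, the extremes of each list in CLIP over RNA, and the 3 nearest profiles to the member with most stops.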

Additional observations from a re-analysis of the deposited data

How the results depend on the processing

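The number of members at least 1.5-fold apart stayed at 1 in RNA, 1 in RPF, 0 in TE and 2 in the 3' UTR ratio with 10 counts added, and, where they applied, under TMM scaling, without centring, with the end codons counted, with the stricter or absent read filter and with the other denominator. Tia1 was left out by the filter at a mean of 500 reads. In CLIP over RNA 5 members were at least 2-fold, 6 against CDS reads of control RNA and 4 against footprints. The median of the members' stops, 252 CPM, ranged between 260.2 and 264.2 CPM without either replicate. Their median control TE was 0.80, and 0.62 without centring, the difference being the median gene itself. Of 227 single values, 203 stayed within counting or replicate error, 24 moved beyond it and 0 of those called changed sign. For CLIP over RNA the error was the SD of 2 replicates, which can be small where the replicates happen to be close. That of Ncl was 0.001, so its shift from 0.807 to 0.817 with 10 counts added was among those that moved. No paired analysis was possible because CLIP alone has replicate numbers. Tia1 and Tial1 had the fewest coding sequence reads of the members and the widest intervals in RNA, RPF and TE.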

Other observations

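Footprints at both ends of the coding sequence also varied among the members. The last 5 codons held 4.17% (2.24 to 7.02) of Tia1 footprints in siPKM and 1.97% (0.904 to 3.71) in siCtrl, from 13 and 9 reads. They held 2.04% (1.67 to 2.46) of Nufip2 footprints in siPKM and 1.93% (1.59 to 2.31) in siCtrl, and 2.49% (1.69 to 3.54) and 2.20% (1.53 to 3.06) of Tial1 footprints, against 1.06% and 1.04% over all genes. Syncrip had 0.151% (0.0804 to 0.258) in siPKM and 0.0928% (0.0463 to 0.166) in siCtrl. Its RNA reads in the last 5 codons were also few, 3 of 4860 in siPKM and 1 of 6823 in siCtrl. The low footprint share of Syncrip is therefore not read as a trait of its ribosomes. The siPKM interval lay above that of siCtrl for 2 members (1.09% of all genes), Pabpc1 and Igf2bp3, and below it for 2 (0.643%), Ncl and Igf2bp1. Pabpc1 had 333 reads there in siPKM and 280 in siCtrl, which is 1.66% (1.48 to 1.84) and 1.25% (1.11 to 1.41). Ncl had 331 reads in siPKM and 563 in siCtrl, which is 0.467% (0.418 to 0.520) and 0.632% (0.581 to 0.686). Its RNA share there was likewise lower in siPKM, at 0.591% (0.487 to 0.711) against 0.844% (0.726 to 0.976) in siCtrl. The Ncl difference was thus not particular to footprints. For Pabpc1, Igf2bp1 and Igf2bp3 the RNA intervals of the 2 conditions overlapped in this region. In siPKM and siCtrl they rest on 126 and 128 RNA reads for Pabpc1, 18 and 19 for Igf2bp1 and 10 and 7 for Igf2bp3. With so few RNA reads of the IGF2BP genes, the overlap cannot tell whether their differences were particular to footprints. Igf2bp1 had 32 reads in the last 5 codons in siPKM and 93 in siCtrl, which is 0.280% (0.191 to 0.394) and 0.545% (0.440 to 0.668) of its footprints. Igf2bp3 had 24 reads in siPKM and 4 in siCtrl, which is 0.857% (0.550 to 1.27) and 0.193% (0.0526 to 0.493). The counts of the IGF2BP genes are small, the region was picked after its values were seen, and the differences have no replicate check.

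In the first 15 codons Tial1 had 6.23% of its footprints in siPKM and 5.83% in siCtrl, Syncrip 5.40% and 5.48% and Elavl1 4.70% and 3.93%, while Pabpc1 had 1.34% and 1.32% and Pabpc4 1.22% and 1.16%, against 6.77% and 6.90% of the reads summed over all genes. The median gene had less than that sum, 4.24% in siPKM and 4.32% in siCtrl. Tial1 and Syncrip lay above the median gene in both conditions, Pabpc1 and Pabpc4 below it, and Elavl1 above it in siPKM alone. A fixed number of codons is a smaller part of a longer coding sequence, and coding length was not given in the table.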
